A study of Mus musculus with 2 samples.

Results

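8 genes of regulatory T cells and of T cell costimulation were followed through mouse thymocytes by single-cell RNA-seq. They were chosen by name, with earlier results of these data known, and are 8 of the 27933 gene symbols in the count tables. Foxp3 and Ikzf2 are transcription factor genes. Tnfrsf4, Tnfrsf9 and Tnfrsf18 belong to the tumour necrosis factor (TNF) receptor family, and Ctla4, Pdcd1 and Icos to the CD28 family. Thymus cell suspensions of 2 genotypes were measured with a droplet assay that counts the 3′ ends of messenger RNAs by unique molecular identifiers (UMIs), 1 library each from 5000 loaded cells. The wild type library stood for the unchanged enhancer NMe, a distant NOTCH1-bound enhancer of Myc, and the mutant library was homozygous for mutations of GATA sites 1 and 2 (GS1+2) within it. The labels give no strain, age or number of animals. The mutated sites lie in no transcript that was counted, so the libraries' labels could not be checked from reads there. For Myc, the gene served by NMe, 299 UMIs were counted in wild type cells and 147 in mutant cells, or 45.3 and 23.3 counts per 1000000 UMIs (CPM), with a log2 ratio of -0.96 (95% interval -1.25 to -0.67).

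Foxp3 encodes the lineage factor of regulatory T cells, which restrain immune responses and arise partly in the thymus, and Ikzf2 encodes Helios, an Ikaros family factor found in thymic regulatory T cells and in thymocytes that have met a strong antigen receptor signal. OX40 (Tnfrsf4), 4-1BB (Tnfrsf9) and GITR (Tnfrsf18) are costimulatory receptors that signal through TRAF adaptors to NF-kB, are induced by T cell receptor signalling and are carried by regulatory T cell precursors in the thymus. Of the CD28 family receptors, ICOS costimulates, while CTLA-4 competes with CD28 for its ligands and PD-1 (Pdcd1) dampens receptor signalling. Thymocytes pass from double-negative (DN, without CD4 and CD8) through cycling to resting double-positive (DP) cells, and those positively selected become single-positive (SP) cells.

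In GENCODE vM21 for GRCm38, Foxp3 lies at chrX:7573644-7595245, Ikzf2 at chr1:69531214-69687245 and Pdcd1 at chr1:94038305-94052553. Ctla4 lies at chr1:60887000-60915832 and Icos at chr1:60977927-61000320, while Tnfrsf4 lies at chr4:156013843-156016612, Tnfrsf18 at chr4:156026164-156028895 and Tnfrsf9 at chr4:150914562-150946102. Ikzf2 and Pdcd1 are on the minus strand and the others on the plus strand. Tnfrsf4 and Tnfrsf18 are neighbours on chromosome 4, with 9551 bases and 2 genes between them, and Ctla4 and Icos are 62094 bases apart on chromosome 1. Promoter sequences are shown for the 3 TNF receptor genes because their UMIs lay in overlapping sets of cells, described below. They run from 250 bases before to 50 bases after a RefSeq start site (GRCm38.p6), 5′ to 3′ on the plus strand, and capitals mark matches to a motif. 6 of the 8 genes had an entry in the promoter table used here. The windows are chr4:150927749-150928048 for Tnfrsf9, the second of its 2 start sites (the window of the first, chr4:150919905-150920204, held no match), chr4:156013445-156013744 for Tnfrsf4 and chr4:156026072-156026371 for Tnfrsf18.
Tnfrsf9: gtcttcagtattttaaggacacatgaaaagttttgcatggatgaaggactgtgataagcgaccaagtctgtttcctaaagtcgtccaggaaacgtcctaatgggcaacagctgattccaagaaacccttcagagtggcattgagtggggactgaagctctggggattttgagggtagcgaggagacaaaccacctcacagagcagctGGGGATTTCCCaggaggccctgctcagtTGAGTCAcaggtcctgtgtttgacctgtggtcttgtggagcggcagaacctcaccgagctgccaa
Tnfrsf4: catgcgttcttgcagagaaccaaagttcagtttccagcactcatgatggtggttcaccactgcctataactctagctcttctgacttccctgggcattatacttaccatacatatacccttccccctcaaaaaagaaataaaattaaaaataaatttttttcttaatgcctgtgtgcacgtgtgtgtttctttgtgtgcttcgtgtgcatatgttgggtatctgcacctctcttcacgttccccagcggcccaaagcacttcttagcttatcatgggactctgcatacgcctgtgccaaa
Tnfrsf18: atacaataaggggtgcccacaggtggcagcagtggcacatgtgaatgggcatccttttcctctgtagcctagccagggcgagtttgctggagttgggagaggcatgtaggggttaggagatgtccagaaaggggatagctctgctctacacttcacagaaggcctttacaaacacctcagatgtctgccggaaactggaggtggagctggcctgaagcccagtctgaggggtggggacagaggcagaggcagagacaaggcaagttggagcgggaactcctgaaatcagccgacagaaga
In the Tnfrsf9 window, 2 overlapping matches to the NF-kB kappaB consensus began 43 and 42 bases before the start site, and 1 match to the AP-1 motif TGANTCA began 15 bases before it. Of 32851 promoter windows of this length, 8.46% held a kappaB match and 7.81% an AP-1 match on either strand. The NR4A motif AAAGGTCA (1.51% of windows) and the EGR motif GCGNGGGCG (5.55% of windows) were not found in these 3 windows, and the Tnfrsf4 and Tnfrsf18 windows held no match to any of the 4. These letters describe the windows and say nothing of binding.

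The filters left 1338 wild type cells with a median of 3323.5 UMIs and 1726 mutant cells with a median of 2595.5 UMIs, and 1 barcode occurred in both libraries. Cells were clustered without the 8 genes and without Myc, and clusters were named from other markers as DN-like (44 wild type and 194 mutant cells), cycling-like (585 and 300), DP-like (276 and 467), post-selection-like (88 and 128) and SP-like (310 and 558), shortened here to DN, cycling, DP, post-selection and SP. Innate-like T and NK cells (20 and 28) and a cluster of B and antigen-presenting cells (15 and 51) were kept apart. The libraries stood apart within classes: the DP class was mainly cluster 0 in wild type (261 cells) and cluster 12 in mutant (449 cells), and cycling cells were mainly clusters 2, 3 and 5 in wild type and clusters 3 and 15 in mutant. With 1 library per genotype there is no test between genotypes, genotype and library cannot be told apart, and every interval covers counting error of these libraries only. Over all cells, the median gene was 0.13 higher in mutant on the log2 scale.

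Over all cells together, each of the 8 genes had a higher level in the mutant library. The 95% interval of the log2 ratio lay above 0 for 7 of them, Foxp3 being the exception, where 26.9% of 10719 genes with at least 20 UMIs did so. A level at least 2-fold higher was found for 5 of the 8, against 6.19% of genes. None of the 8 was 2-fold lower (1.78% of genes) or had an interval below 0 (12.4%). Helios (Ikzf2) stood at 136 CPM in wild type and 245 CPM in mutant, a log2 ratio of 0.85 (0.73 to 0.97). OX40 (Tnfrsf4) stood at 15.8 and 42.9 CPM (1.44, 1.11 to 1.78), 4-1BB (Tnfrsf9) at 6.67 and 22.4 CPM (1.75, 1.25 to 2.27) and GITR (Tnfrsf18) at 32.6 and 67.8 CPM (1.06, 0.82 to 1.30). The largest ratio of the 8 belonged to Ctla4, at 19 UMIs (2.88 CPM) in wild type, 119 UMIs (18.9 CPM) in mutant and a log2 ratio of 2.71 (2.01 to 3.50). Pdcd1 had 11.2 and 24.1 CPM (1.11, 0.70 to 1.53) and Icos 18.6 and 27.8 CPM (0.58, 0.24 to 0.92). When cells were thinned to the same depth, the values of Pdcd1 (0.57) and Icos (0.34) had intervals that included 0.

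The mutant library held fewer cycling cells (17.4% against 43.7% of cells) and more DN and SP cells, and the whole-library levels move with this makeup. With the mutant class levels weighted to the wild type class makeup, a calculation added after the data were seen, the log2 ratio was 2.70 for Ctla4, 1.08 for Tnfrsf9, 0.99 for Pdcd1, 0.60 for Tnfrsf4, 0.46 for Ikzf2 and 0.34 for Tnfrsf18. Under the same weighting Foxp3 was at -0.12 and Icos at -0.15. The ratio of Ctla4 thus stayed where it was, those of the 3 TNF receptors and Ikzf2 became smaller, and those of Icos and Foxp3 (0.83 before, -0.38 to 2.12) changed sign.

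**Figure D1:**
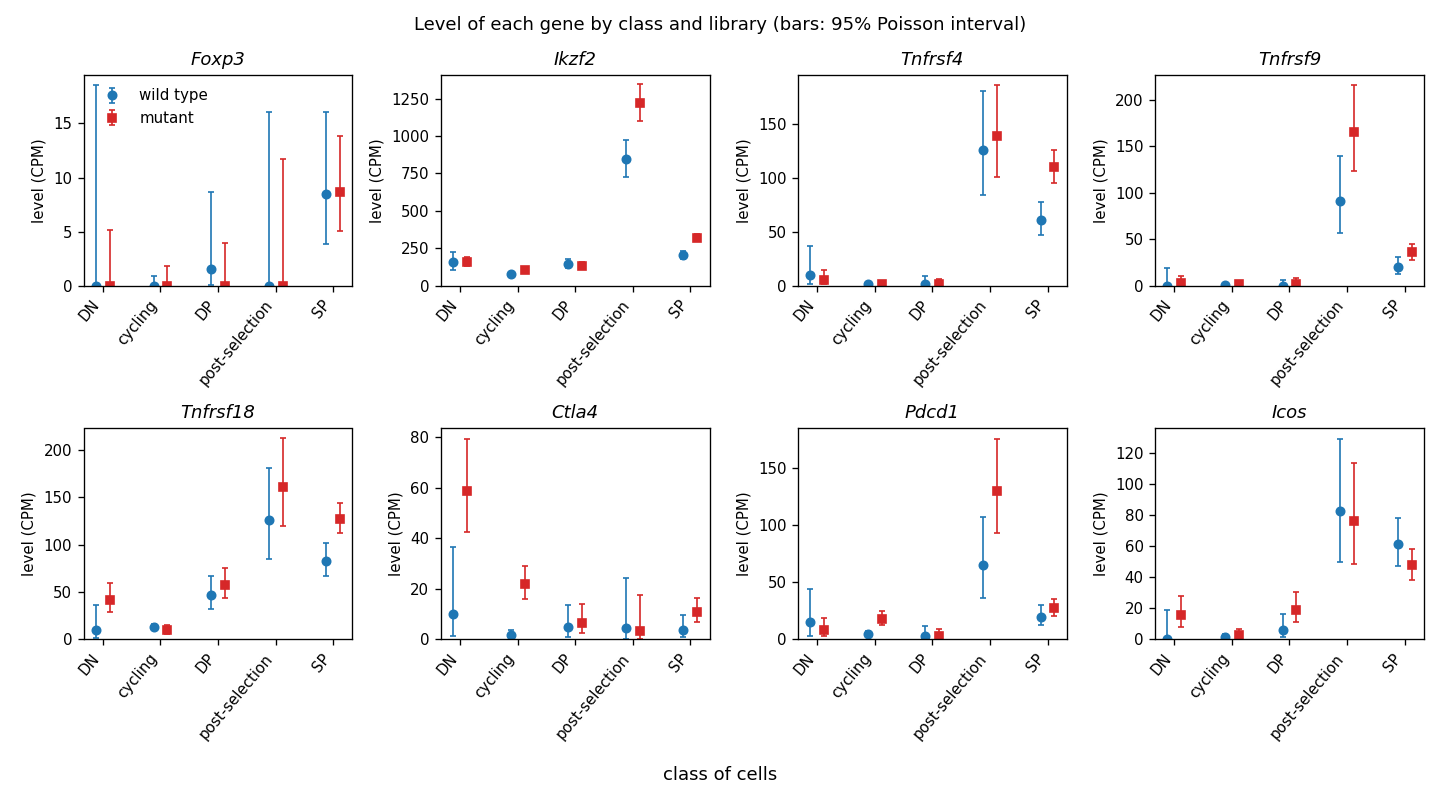
Level of each of the 8 genes (vertical axis, CPM) in 5 classes of thymocytes, wild type as blue circles and mutant as red squares, bars giving the 95% Poisson interval of 1 library. Most genes peak in the post-selection class, Foxp3 stands in SP cells at 8.48 and 8.67 CPM, and Ctla4 is highest in mutant DN cells at 58.7 CPM.

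Across the classes, 6 of the 8 genes (Ikzf2, Tnfrsf4, Tnfrsf9, Tnfrsf18, Pdcd1 and Icos) were highest among the 5 classes in post-selection cells in each library. Of all genes, 22.7% in wild type and 20.7% in mutant had their highest level there. Foxp3 was highest in SP cells, where 9.87% and 9.39% of genes were highest, and Ctla4 in DN cells, where 20.9% and 20.2% were. The step from SP up to post-selection cells went beyond counting error for Ikzf2, Tnfrsf9 and Pdcd1 in both libraries and for Tnfrsf4 in wild type (2.06-fold, 1.28 to 3.24). For Tnfrsf4 in mutant (1.26-fold, 0.892 to 1.75), and for Tnfrsf18 and Icos in both libraries, these neighbours in the order did not differ beyond it. By share of cells with a UMI at full depth, mutant Tnfrsf4 went the other way. It was in 9 of 128 post-selection cells (7.03%) against 89 of 558 SP cells (15.9%). In wild type it was in 10 of 88 (11.4%) against 32 of 310 (10.3%). Mutant Tnfrsf18 was in 21.1% of post-selection and 26.0% of SP cells, but in 15.5% and 14.9% after thinning. The first place of Ctla4 in wild type DN cells rests on 2 UMIs.

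Foxp3, the defining gene of regulatory T cells, was rare. It had 10 UMIs in 8 wild type cells and 17 UMIs in 14 mutant cells. In SP cells its level was 8.48 CPM (3.88 to 16.1) in wild type, against 8.67 CPM (5.05 to 13.9) in mutant, and a UMI was found in 7 of 310 (2.26%) and 14 of 558 (2.51%) SP cells, or 0.968% and 0.923% of them after thinning to 1500 UMIs per cell (wild type DP cells 0.362%, mutant DP cells none). The levels in SP cells of both libraries lay within each other's counting error, with a log2 ratio of 0.03. Outside SP cells there was 1 Foxp3 UMI, in a wild type DP cell. In post-selection cells no UMI was found, which allows a level of up to 13.05 CPM in wild type and 9.49 CPM in mutant (3 UMIs). At such counts a cell without a Foxp3 UMI cannot be called negative for the gene.

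Ikzf2 was detected in every class, with its peak after selection. In wild type it stood at 156 CPM in DN, 76.7 in cycling, 143 in DP, 844 in post-selection and 205 in SP cells. In the mutant the same order of classes gave 159, 103, 132, 1218 and 321 CPM. The step from DP to post-selection cells was 5.89-fold (4.58 to 7.64) in wild type and 9.25-fold (7.54 to 11.4) in mutant, and the level was 4.11-fold and 3.80-fold higher in post-selection than in SP cells. The mutant level was higher in post-selection cells by a log2 ratio of 0.53 (0.28 to 0.79) and in SP cells by 0.64 (0.42 to 0.87), while DN and DP cells had intervals that included 0. Among the SP clusters the Ikzf2 ratio was 1.08 (0.71 to 1.47) in cluster 6 and 1.19 (0.12 to 2.43) in cluster 7. In clusters 4 and 9 it was 0.22 (-0.31 to 0.76) and -0.08 (-0.47 to 0.33). Cluster 6 held 124 wild type and 306 mutant SP cells. When each library was clustered alone, the SP ratio of Ikzf2 was -0.37. A mutant cluster of 78 cells rich in Ikzf2 then carried no class name. The innate-like mutant cluster then had 115 cells, and wild type had 214 SP and 189 post-selection cells. The part of each change was not tested. Among cycling cells the ratio was 0.43 (0.17 to 0.68), but 0.07 without the 4 clusters that came almost wholly from 1 library. In thinned cells, Ikzf2 was detected in 51.1% and 57.8% of post-selection cells, against 13.4% and 15.2% of DP cells, the class taken as background (unthinned 56.8% and 64.1% against 17.8% and 20.6%, at median depths of 2275.5 and 2007.5 UMIs against 2114 and 1830).

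OX40, the product of Tnfrsf4, marks activated T cells and regulatory T cell precursors. Its transcript was close to absent before selection, with 1 UMI in DP cells of each library (1.56 and 1.06 CPM). In post-selection cells it reached 126 CPM in wild type and 139 CPM in mutant, a step from DP cells of 81.1-fold (13.4 to 3311) and 131-fold (22.3 to 5295). In SP cells it stood at 61.2 and 110 CPM, and the mutant was higher there by a log2 ratio of 0.85 (0.44 to 1.27). SP cells held 62.5% of the Tnfrsf4 UMIs in wild type and 80.0% in mutant. Single cells weighed on the counts, since 1 wild type cell carried 20 of the 104 UMIs. The SP ratio was 0.34 when pathway genes were left out of the clustering and 0.44 without 1 small cluster described below, both with intervals that included 0.

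4-1BB, the product of Tnfrsf9, is induced by antigen receptor signalling. No Tnfrsf9 UMI was found in 276 wild type DP cells and 2 in 467 mutant DP cells. In post-selection cells its level was 91.3 CPM in wild type and 165 CPM in mutant, at least 19.6-fold higher than in wild type DP cells at a floor of 3 UMIs over the class, and 77.5-fold (20.4 to 657) higher in mutant. The post-selection level was 4.62-fold and 4.61-fold that of SP cells, so the drop into SP cells was alike in these libraries. Mutant levels were higher by a log2 ratio of 0.85 in post-selection cells (0.09 to 1.65) and in SP cells (19.8 and 35.7 CPM, 0.13 to 1.63). Cluster 8, which held nearly all Tnfrsf9 UMIs of the post-selection class, made up 27 of its 88 wild type and 56 of its 128 mutant cells, and within that cluster the log2 ratio was 0.26 (-0.50 to 1.07). The SP value lost its interval above 0 under 8 of 17 alternatives, with values from 0.02 to 1.26.

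GITR, the product of Tnfrsf18, showed a shallower pattern than the other TNF receptors. DP cells held 46.7 CPM in wild type and 57.3 CPM in mutant, and post-selection cells 126 and 161 CPM, a step of 2.70-fold (1.56 to 4.66) and 2.81-fold (1.88 to 4.21). SP cells stood at 82.9 and 127 CPM, with a log2 ratio of 0.62 (0.27 to 0.99) that lost its interval above 0 under 5 of 17 alternatives. In DN cells there were 2 UMIs (10.1 CPM) in 44 wild type cells and 30 UMIs (42.0 CPM) in 194 mutant cells, which gave a log2 ratio of 2.06 (0.08 to 5.17). The low wild type count makes that ratio loose, and 4 of 16 alternatives gave an interval that included 0.

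**Figure D2:**
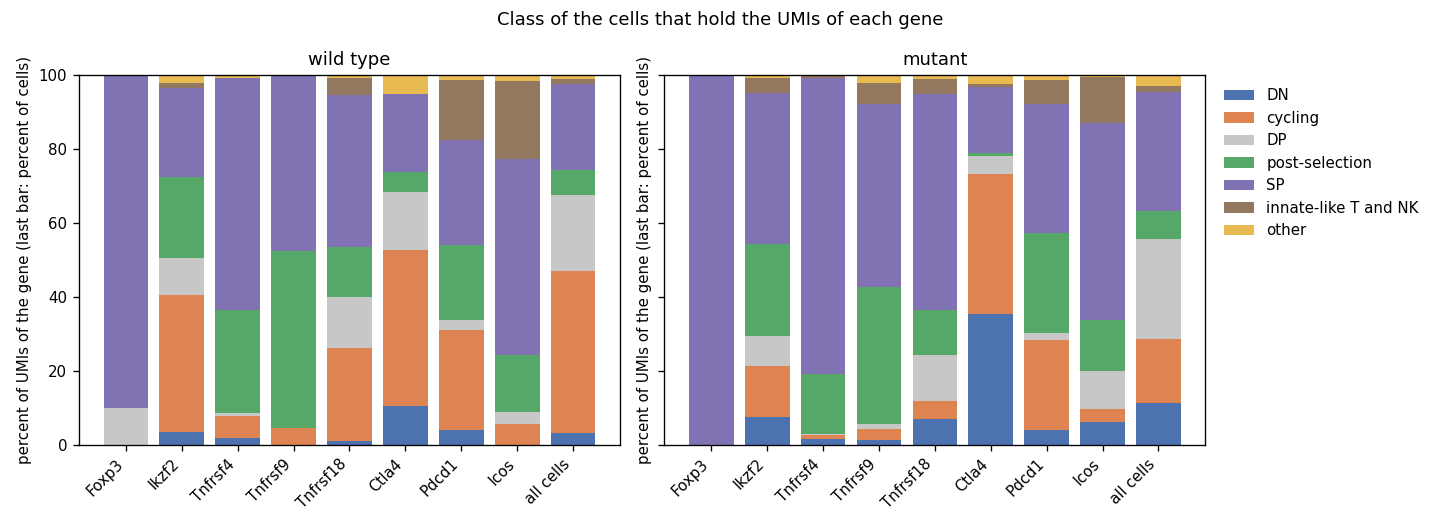
Share of each gene's UMIs (vertical axis, percent) that lay in each class of cells, wild type left and mutant right, with the share of all cells as the last bar. SP cells hold 62.5% and 80.0% of Tnfrsf4 UMIs, and DN and cycling cells hold 35.3% and 37.8% of the mutant Ctla4 UMIs.

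Ctla4, which encodes the CD28 competitor CTLA-4, followed another course. In mutant cells it was highest in DN cells, with 42 UMIs in 35 of 194 cells (58.7 CPM, 42.3 to 79.4), and in cycling cells 45 UMIs gave 21.7 CPM. In wild type the same classes held 2 UMIs in 1 of 44 DN cells (10.1 CPM) and 8 UMIs in 585 cycling cells (1.85 CPM). The log2 ratio was 2.54 (0.60 to 5.64) in DN cells and 3.55 (2.45 to 4.84) in cycling cells, and both intervals stayed above 0 under every alternative that gave one, 14 for DN and 16 for cycling cells. In mutant DN cells the level was 5.49-fold (3.18 to 9.75) that of SP cells. Post-selection cells held 1 Ctla4 UMI in each library, while SP cells held 4 and 21 (3.77 and 10.7 CPM, log2 ratio 1.51, -0.06 to 3.51). In thinned cells, Ctla4 was found in 15 of 190 mutant DN cells (7.89%) and in none of 44 wild type DN cells, against 0.737% and 0.362% of DP cells. Thinned cycling cells held it in 3 of 297 in mutant and in none of 585 in wild type, against 11% and 1.37% at full depth, so that thinned detection in mutant cycling cells was near that of DP cells.

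The cycling cells of the libraries came from different clusters, so Ctla4 was also read within single clusters. In cluster 3, led by the S phase genes Ung and Hells, wild type cells held 3 UMIs (1.72 CPM) and mutant cells 17 (28.1 CPM), a log2 ratio of 4.03 (2.24 to 6.45). Cluster 3 held 233 wild type and 101 mutant cells, but the finer clustering parted such cells by library: finer cluster 3 held 151 wild type and 7 mutant cells, and finer cluster 21, also led by Ung, 6 and 102. In the mitotic cluster 2, which held 143 and 50 cells at either resolution, Ctla4 had 2 UMIs in each library and a log2 ratio of 1.34 (-2.45 to 5.13). The higher cycling level of the mutant thus lay in cells that at the finer resolution have few wild type counterparts. Cluster 15, with 134 mutant cells and 1 wild type cell, held 25 Ctla4 UMIs in mutant cells (23.8 CPM). Mutant DN and cycling cells with Ctla4 often also held Il2ra, the interleukin 2 receptor alpha chain of DN cells and a marker used to name that class. In DN cells an Il2ra UMI was in 34 of 35 with Ctla4 (97.1%, 85.1 to 99.9). Without Ctla4 it was in 135 of 159 (84.9%, 78.4 to 90.1). These intervals overlapped, and the median depths were 3744 and 2999 UMIs. Among mutant cycling cells 15 of 33 with Ctla4 held Il2ra (45.5%, 28.1 to 63.6) and 20 of 267 without it (7.49%), at median depths of 10298 and 5848 UMIs. The cycling cells with Ctla4 were thus the deeper ones, and the part of depth was not tested. Macrophage markers moved with the DN class, with 8 of 10 found and a summed level of 111 CPM in wild type and 10 of 10 and 790 CPM in mutant; their part in the Ctla4 level was not tested.

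Pdcd1, which encodes the inhibitory receptor PD-1, was highest of the 5 classes in post-selection cells at 65.2 CPM in wild type and 130 CPM in mutant, against 3.11 and 3.19 CPM in DP cells. The post-selection ratio was 0.99 (0.11 to 1.95) on the log2 scale, and 6 of 17 alternatives gave an interval that included 0, with values from 0.27 to 1.46. In cycling cells Pdcd1 had 20 UMIs (4.63 CPM) in wild type and 37 UMIs (17.8 CPM) in mutant, giving a log2 ratio of 1.94 (1.12 to 2.81), with an interval above 0 under all 17 alternatives. Finer clusters 18 and 21 held 19 and 15 mutant Pdcd1 UMIs, but only 1 and 6 wild type cells, with 0 Pdcd1 UMIs. In the mitotic cluster 2 Pdcd1 had 3 UMIs in each library (1.34, -1.56 to 4.24). SP cells as a class stood at 19.8 and 27.0 CPM, within each other's counting error, but their clusters differed. In cluster 9 Pdcd1 had 4 and 31 UMIs (15.6 and 69.5 CPM, log2 ratio 2.15, 0.65 to 4.12). In cluster 4 it had 12 and 5 UMIs (33.9 and 12.7 CPM, -1.42, -3.27 to 0.19). Innate-like T and NK cells held 151 CPM in wild type and 86.7 CPM in mutant, from 20 and 28 cells.

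Icos, the gene of the costimulator ICOS, was not higher in the selected cells of the mutant library. Post-selection cells held 82.6 CPM in wild type and 75.9 CPM in mutant, and SP cells 61.2 and 47.4 CPM, a log2 ratio of -0.37 (-0.84 to 0.11). Innate-like T and NK cells had the highest Icos level of the named classes, at 327 and 191 CPM. In DP cells 4 wild type and 18 mutant UMIs gave a log2 ratio of 1.62 (0.02 to 3.64), which lost its interval above 0 under 9 of 16 alternatives. Its level over all cells and its levels in selected cells thus lay on opposite sides of a log2 ratio of 0.

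Class by class, the count of the 8 genes with a mutant interval above 0 can be set beside all genes. In SP cells it was 4 of 8 (Ikzf2, Tnfrsf4, Tnfrsf9 and Tnfrsf18), against 5.53% of genes. In post-selection cells 3 of the 6 with enough UMIs passed (Ikzf2, Tnfrsf9 and Pdcd1), against 6.12%. In cycling cells 3 of 4 passed (Ikzf2, Ctla4 and Pdcd1), against 24.5%, in DN cells 2 of 3 (Tnfrsf18 and Ctla4), against 10.7%, and in DP cells 1 of 3 (Icos), against 10.9%. An interval below 0 was given by none of the 8 in any of these 5 classes, against 3.93% of genes in SP, 4.28% in post-selection, 5.76% in cycling, 3.44% in DN and 6.15% in DP cells. In the cluster of B and antigen-presenting cells, Ikzf2 was lower in the mutant, at 286 and 86.3 CPM (log2 ratio -1.73, -2.79 to -0.70). That ratio rests largely on single cells, as 1 wild type cell held 11 of the 21 UMIs and 1 mutant cell 13 of the 15. In innate-like T and NK cells Ikzf2 was higher in the mutant, at 126 and 529 CPM (2.07, 1.10 to 3.20), from 10 and 61 UMIs.

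**Figure D3:**
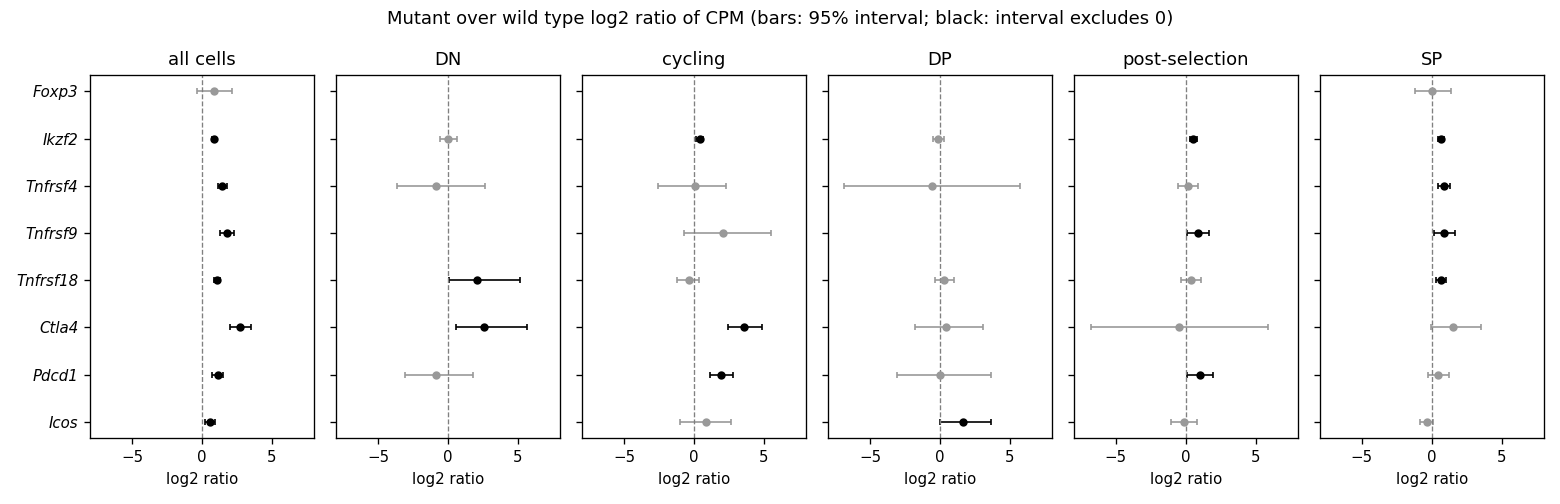
Log2 ratio of the mutant over the wild type level (horizontal axis) of each gene over all cells and in 5 classes, with the 95% interval for counting error, black where it excludes 0. Ctla4 reaches 3.55 in cycling cells, while Tnfrsf4, Tnfrsf9, Tnfrsf18 and Ikzf2 are black in SP cells.

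Within the post-selection class the genes split by cluster. Cluster 8 (27 wild type and 56 mutant cells) was led by Nr4a1, Nfkbid, Bcl2l11 and Cd69, genes induced by receptor signalling, and cluster 1 (61 and 72 cells) by Cd5, Itm2a and Tox. In cluster 8 Tnfrsf4 stood at 338 CPM in wild type and 258 CPM in mutant, while cluster 1 held no Tnfrsf4 UMI in either library, at least 16.2-fold and 12.5-fold lower at a floor of 3 UMIs. For Tnfrsf9 the levels in cluster 8 were 244 and 293 CPM, against 0 and 13.8 CPM in cluster 1. Tnfrsf18 was 5.27-fold and 3.48-fold higher in cluster 8, and Ikzf2 1.98-fold and 2.56-fold higher. Pdcd1 in cluster 8 had 46.6 CPM in wild type and 176 CPM in mutant (log2 ratio 1.92, 0.41 to 3.88), and 76.4 and 75.8 CPM in cluster 1. Icos was alike in the clusters, at 81.5 and 70.2 CPM in cluster 8 and 83.3 and 82.6 CPM in cluster 1. Within this class Tnfrsf4 and Tnfrsf9 thus lay almost wholly in the Nr4a1-led cells, whereas Icos was spread over both clusters. Tnfrsf18 was higher in cluster 8 but also present in cluster 1, at 48.6 and 68.9 CPM. Among all clusters with at least 20 cells, cluster 8 had the highest level of 4 of the 8 genes in wild type (Ikzf2, Tnfrsf4, Tnfrsf9 and Tnfrsf18), against 13.7% of genes, and of these and Pdcd1 in mutant, 5 of 8 against 10.2%. The innate-like cluster 13 was highest for Icos, and in wild type also for Pdcd1 (12% and 9.27% of genes), cluster 6 for Foxp3 (4.26% and 2.64%) and the DN cluster 11 for Ctla4 (11% and 8.63%). Among SP cells, the Nkg7 and Runx3 led cluster 9 held Ikzf2 at 336 and 318 CPM but Tnfrsf4 at 0 and 2.24 CPM, while the Igfbp4 and S1pr1 led cluster 6 held Tnfrsf4 at 117 and 190 CPM.

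At a finer clustering (resolution 1.6) a group of 42 wild type and 86 mutant cells separated, 3.14% and 4.98% of cells. It is called finer cluster 14 here and took its cells from different clusters in each library. In wild type 15 came from SP cluster 4, 23 from SP cluster 6, 2 from SP cluster 9 and 2 from post-selection cluster 8, and in mutant 5 came from cluster 4, 77 from cluster 6 and 4 from cluster 8. Its leading genes were Arhgap20, Ikzf4, which encodes Eos, a partner of FOXP3, and Chchd10, followed by the interferon-inducible Ifit1 and Ifi27l2a, with Irf7 and Bmyc also among the first 10. It held 6 of the 10 wild type and 13 of the 17 mutant Foxp3 UMIs. Foxp3 stood at 43.1 and 52.1 CPM there. Ikzf2 reached 704 and 1290 CPM (log2 ratio 0.87, 0.54 to 1.21), Tnfrsf4 252 and 529 CPM (1.07, 0.53 to 1.65) and Tnfrsf18 216 and 409 CPM (0.92, 0.32 to 1.56). Tnfrsf9 stood at 86.2 and 152 CPM, and Ctla4 at 21.6 and 52.1 CPM from 3 and 13 UMIs. Pdcd1, at 14.4 and 20.03 CPM, and Icos, at 64.7 and 36.1 CPM, had ratios whose intervals included 0. This small group carried 33.7% of the wild type and 48.9% of the mutant Tnfrsf4 UMIs.

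Against the Igfbp4 and S1pr1 led SP cells at the same resolution (finer cluster 8), finer cluster 14 had 21.5-fold more Ikzf2 (10.9 to 48.3) in wild type and 8.999-fold more (7.19 to 11.3) in mutant. The step was 4.93-fold and 7.38-fold for Tnfrsf4, 11.8-fold and 11.04-fold for Tnfrsf9 and 3.28-fold and 3.49-fold for Tnfrsf18. Foxp3 was 5.91-fold and 9.45-fold higher. Against the Nr4a1-led finer cluster 11, Tnfrsf9 was at 0.427-fold in wild type and 0.526-fold in mutant, and Pdcd1 at 0.118-fold in mutant. Among the post-selection and SP cells, Tnfrsf9 was thus highest in the Nr4a1-led cells and Foxp3 in finer cluster 14, with Ikzf2, Tnfrsf4 and Tnfrsf18 high in both. Pdcd1 had no single high point. In wild type it stood at 42.5 CPM in the Nr4a1-led finer cluster 11 and 69.3 CPM in the Cd5-led finer cluster 5. In mutant it stood at 169 CPM in finer cluster 11. Finer cluster 19 (5 wild type and 16 mutant cells), led by Maf, Cpa3 and Etv5, took none of the classes. Of its 10 leading genes, 4 were gamma delta T cell markers. Pdcd1 stood there at 362 CPM in mutant and, from 3 UMIs, at 143 CPM in wild type. This clustering left out the 8 genes but not their correlates, and finer cluster 14 was picked after its values were seen. B cell markers summed to 266 and 76.1 CPM and macrophage markers to 35.9 and 12.02 CPM in these cells, from 2 of 8 and 4 of 8, and 2 of 10 and 1 of 10 markers.

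**Figure D4:**
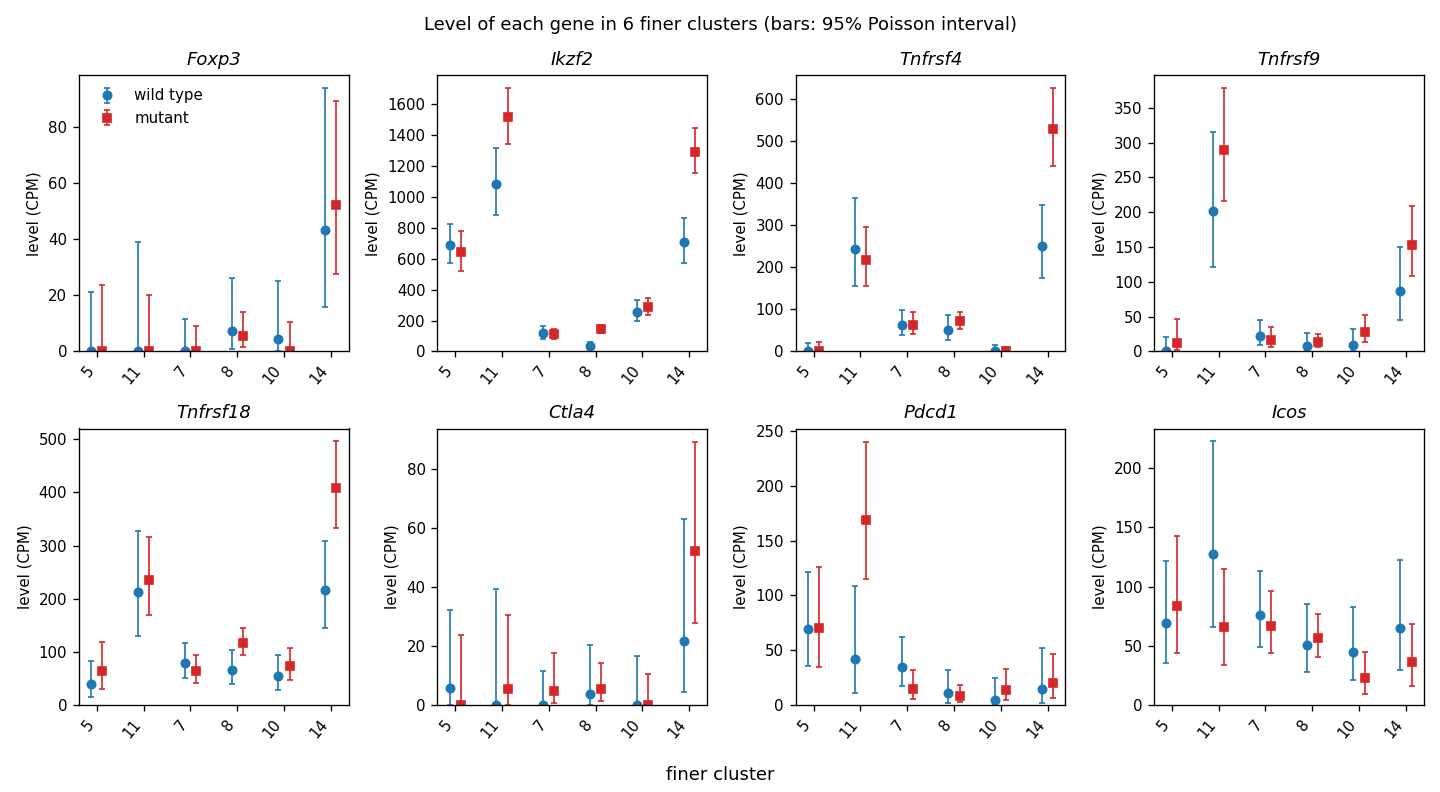
Level of each gene (vertical axis, CPM) in 6 finer clusters, numbers 5 and 11 of the post-selection class and 7, 8, 10 and 14 of the SP class, wild type as blue circles and mutant as red squares, with 95% Poisson intervals. Foxp3 is highest in cluster 14, Tnfrsf9 and Pdcd1 in cluster 11 in the mutant, and Tnfrsf4 reaches 529 CPM in mutant cluster 14.

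Cells that held a Foxp3 UMI were compared with the other post-selection and SP cells. In the mutant, 13 of 14 such cells also held Ikzf2, against 244 of 672 others, 10 held Tnfrsf18 (162 others), 9 held Tnfrsf4 (89 others) and 5 held Ctla4 (13 others). In wild type 4 of 7 held Ikzf2, against 128 of 391, 3 held Tnfrsf9 (23 others), 2 Tnfrsf4 (40 others) and 1 Ctla4 (4 others). Tnfrsf18 was in 1 of the 7 (14.3%), against 79 of the 391 (20.2%). Pdcd1 was found in 1 Foxp3 cell of each library and Icos in 2. Il2ra, the high-affinity interleukin 2 receptor chain of regulatory T cells, was in 8 of the 14 mutant cells against 24 others. In wild type it was in 1 of the 7 cells against 6 others. Ikzf4 was in 7 of 14 mutant and 5 of 7 wild type cells. Of further markers read in mutant Foxp3 cells, Gpr83, Cd83 and Lrrc32 were also higher beyond counting error. Cd4 (0.534-fold), Izumo1r (0.983-fold), Il2rb (1.14-fold), Cd8b1, Ccr7, Capg and Nrp1 were not, and Itgae, Nt5e and Zbtb7b had no UMI. In wild type Foxp3 cells Gpr83, Cd83 and Nrp1 were higher beyond it, but on few counts. In that order they had 4 UMIs in 2 cells, 1 UMI in 1 cell and 5 UMIs in 2 cells. Cd4, Ccr7, Cd8b1, Itgae, Capg, Izumo1r and Il2rb were not higher beyond counting error in these wild type cells. Lrrc32, Zbtb7b and Nt5e had no UMI in them. Cd8b1 was in 4 of the 7, against 198 others. The median depth was 2723 UMIs in wild type Foxp3 cells against 2761 in the others, and 2845.5 against 2762 in mutant. Of other genes with at least 20 UMIs in these cells of both libraries together, 4 were above 2-fold in each library: Bmyc (9.99-fold), Tmem123 (4.48-fold), 2310001H17Rik (4.41-fold) and Ctss (3.28-fold).

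Co-detection was read in post-selection and SP cells thinned to 1500 UMIs, 398 in wild type and 658 in mutant. For 21 of 28 gene pairs in wild type and 22 of 28 in mutant, the share of cells with 1 gene was higher among cells with the other. A pair counted at any difference, and pairs of other genes were not read, so these counts have no background. Thinned Foxp3 was in 3 wild type and 5 mutant SP cells. Tnfrsf18 was found in 33.3% of wild type and 36.5% of mutant Tnfrsf4 cells, against 8.77% and 12.8% of cells without Tnfrsf4 (unthinned 57.1% and 53.1% against 15.7% and 20.4%). Tnfrsf9 was found in 10.4% and 15.8% of Ikzf2 cells, against 1.32% and 1.48% of the others. Tnfrsf18 was found in 11.5% of Ikzf2 cells against 10.6% of others in wild type, and in 25.5% (19.4 to 32.5) against 10.97% (8.30 to 14.1) in mutant. Icos went the other way in mutant cells, at 5.43% (2.64 to 9.77) of Ikzf2 cells against 9.07% (6.64 to 12.03) of others, with overlapping intervals. Within SP cells alone, 21 of 28 pairs in wild type and 18 of 28 in mutant went together after thinning. Within the post-selection class alone, 11 and 10 pairs went together of 21 with both genes detected in each library, and 12 and 13 did so at full depth.

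**Figure D5:**
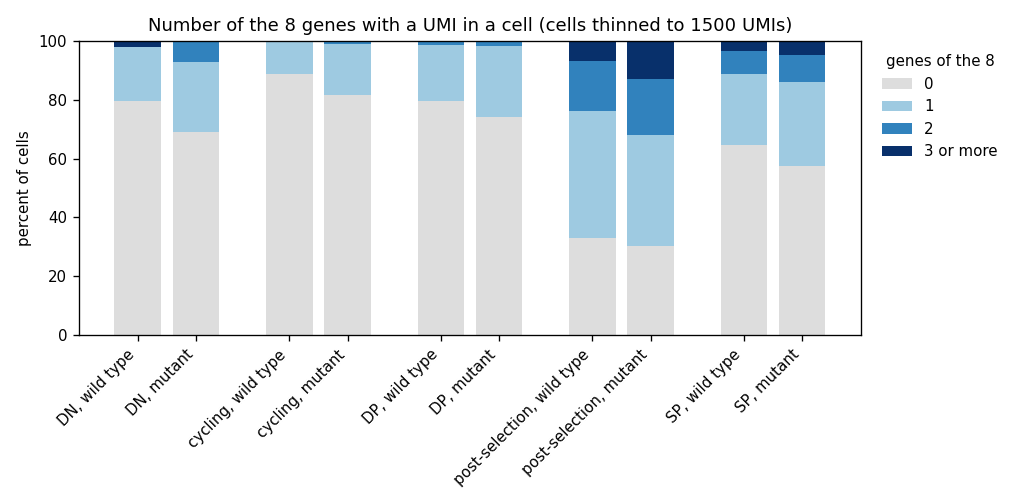
Percent of cells (vertical axis) of each class and library that held a UMI of 0, 1, 2, or 3 or more of the 8 genes after thinning to 1500 UMIs. Post-selection cells hold 3 or more in 6.82% of wild type and 12.9% of mutant cells, SP cells in 3.55% and 4.80%.

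Cells with several of the genes at once had their highest share of the 5 classes in post-selection cells. After thinning, 3 or more of the 8 were found in 6 of 88 wild type (6.82%) and 15 of 116 mutant (12.9%) post-selection cells, and in 11 of 310 (3.55%) and 26 of 542 (4.80%) SP cells. Among innate-like T and NK cells it was 1 of 20 and 1 of 28, and 4 and 7 at full depth. Among DN cells it was 1 of 44 (2.27%) and 1 of 190, among DP cells 1 of 276 and 0 of 407, and among cycling cells none in either library. In finer cluster 14, 6 of 42 wild type (14.3%) and 20 mutant cells (24.7%) held 3 or more after thinning, and 26.2% and 46.5% at full depth. Conversely, 33.0% and 30.2% of post-selection cells and 79.3% and 74.2% of DP cells held none of the 8.

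Genes whose levels ran most like each gene's were ranked over 21 cluster-by-library units and 7932 genes, with Pearson's r of the log2 level as a description; the units share libraries and depth. For Tnfrsf9 they were Rel (0.89), an NF-kB subunit, Prr7 (0.89) and Nr4a1 (0.87), an orphan nuclear receptor induced by receptor signalling. Ikzf2 ran with the early activation antigen gene Cd69 (0.88), Tnfrsf4 with Arhgap20 (0.97), Tnfrsf18 with Zfp36l1 (0.90) and Pdcd1 with Samsn1 (0.83). Icos ran with the integrin gene Itgb2 (0.94), Limd2 (0.93) and the adhesion gene Cd2 (0.93). Ctla4 ran with Ifi202b (0.80), which itself stood at 0.45 CPM in wild type and 110 CPM in mutant cells.

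Other genes of these pathways, from lists chosen with earlier results known, also leaned to the mutant over all cells. Of 16 measured regulatory T cell partner genes 13 were higher (median log2 ratio 0.48), of 6 TNF receptor family genes, ligands and TRAFs 5 (0.32), of 7 CD28 family partners and ligands 6 (0.54), of 13 NF-kB pathway genes 13 (0.43) and of 11 receptor response genes 10 (0.56), against 62.3% of 5639 genes with a median of 0.08. Within SP cells the same lists leaned less, with 10 of 18 (0.05), 6 of 10 (0.10), 5 of 8 (0.20), 8 of 12 (0.26) and 4 of 11 (-0.04) higher, against 55.7% of 5219 genes with a median of 0.04. The 6 measured genes of the 8 had a median of 0.61 in SP cells, with 5 higher. In cycling cells the lists, in the same order, had medians of 0.30, 0.25, 0.44, 0.46 and 0.60, against 0.19 for all genes. In DP cells they had medians of 0.13, 0.15, 0.26, 0.02 and 0.24, against 0.10.

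The genes at the ends of the lists had these values over all cells. Il2ra stood at 23.8 CPM in wild type and 137 CPM in mutant (log2 ratio 2.53, 2.28 to 2.78), and Cd200, an immunoglobulin family surface ligand, at 19.4 and 91.4 CPM (2.24, 1.96 to 2.53). Relb, an NF-kB subunit, stood at 10.3 and 26.7 CPM (1.37) and Cd69 at 20.5 and 56.5 CPM (1.47, 1.18 to 1.76). At the low end, the semaphorin receptor gene Nrp1 was at 40.7 and 36.4 CPM (-0.16, -0.43 to 0.10), the death receptor gene Fas at 50.1 and 43.3 CPM (-0.21, -0.45 to 0.03), and Id3, an inhibitor of E proteins, at 239 and 184 CPM (-0.38, -0.49 to -0.27).

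Reads of overlapping genes on the opposite strand could enter some counts, as the sources used here do not state whether counting used strand. At Foxp3, Ccdc22 had 91 wild type and 123 mutant UMIs and Ppp1r3f 5 and 18, and at Tnfrsf9, Camta1 had 298 and 291. Gm29114 at Ikzf2 and Gm16008 at Tnfrsf18 had at most 1 UMI in a library.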

How the data were processed

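The authors deposited raw UMI counts per gene and barcode, made with Cell Ranger on mm10 per the submitters' processing notes; its version is not given in the sources used here. Barcodes with at least 400 genes and at most 10% mitochondrial counts were kept, and called doublets were left out. The caller marked 0.260% of cells and is taken not to have worked at that rate, so an alternative left out the 5% of cells with the highest scores. Cells were clustered with scanpy 1.11.5 (2000 variable genes, 30 components, 15 neighbours, Leiden resolution 1), without the 8 genes, Myc, and mitochondrial, ribosomal, immune receptor and sex-linked genes, and a cluster took a class from at least 3 markers among its 50 leading genes. The members and lists were chosen with earlier results of these data known. Levels are pooled UMIs per 1000000 (CPM). Their 95% intervals are exact Poisson ones, those of ratios exact conditional and those of shares Clopper-Pearson (scipy 1.17.1). Thinned shares use cells cut to 1500 UMIs. The fold bound for 0 UMIs uses 3 UMIs. Pathway medians used genes with at least 20 CPM in a library, with 5 CPM added. Named genes were the 8, the 2 highest and 2 lowest of each list, and the 3 most alike in pattern. Genes with at least 20 UMIs in cells with a Foxp3 UMI and above 2-fold there in each library were also named. So were markers read in cells with a Foxp3 UMI. No model was fitted, as each genotype had 1 library. The code was tested on simulated data.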

Additional observations from a re-analysis of the deposited data

How the results depend on the processing

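No paired analysis was possible because each genotype had 1 library and the labels carry no replicate numbers. Of 20 log2 ratios, over all cells and in the 5 classes, whose interval lay above 0, 9 kept it under every alternative that gave one: Ikzf2, Tnfrsf4, Tnfrsf9, Tnfrsf18 and Ctla4 over all cells, Ctla4 in DN and cycling cells, Pdcd1 in cycling cells and Ikzf2 in post-selection cells. With cells thinned to 1500 UMIs, 10 of 18 kept it; with each library clustered alone, 14 of 18; with pathway genes left out of the clustering, 15 of 20. Clustering each library alone turned the Ikzf2 ratio in SP cells to -0.37. The mutant cells led by Arhgap20 and Ikzf4 then had no class. Other cells changed class too, and the part of each change was not tested. Weighting the mutant to the wild type class makeup, added after the data were seen, turned the ratio over all cells to -0.15 for Icos and to -0.12 for Foxp3, whose interval included 0 before. Pairs found together in post-selection cells alone were 11 in wild type and 10 in mutant, of fewer pairs. Leaving out the clusters almost wholly from 1 library, or finer cluster 14, both added after the data were seen, kept 18 of 19 and 17 of 20 intervals above 0. Counting error limits Foxp3 in every class and Ctla4 and Tnfrsf18 in the 44 wild type DN cells.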
